A study of Bos taurus with 30 samples.

Results

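The mammalian mitochondrial genome encodes 13 proteins, and 6 of them belong to respiratory chain complexes III, IV and V. The genes of these 6 subunits were found by name among the 27607 genes of the bovine count tables, and all 6 were present. They were cytochrome b of complex III (MT-CYB, ENSBTAG00000043550), the 3 core subunits of complex IV (COX1, ENSBTAG00000043561; MT-CO2, ENSBTAG00000043556; COX3, ENSBTAG00000043560) and subunits a and 8 of ATP synthase, complex V (MT-ATP6, ENSBTAG00000043584, and MT-ATP8, ENSBTAG00000043564). The remaining 7 mitochondrially encoded proteins are subunits of complex I, and they served for comparison.

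Complex III passes electrons from ubiquinol to cytochrome c and pumps protons, and cytochrome b carries its haems within the membrane. Complex IV passes the electrons on to oxygen, with the catalytic copper and haem centres in COX1 and MT-CO2, and complex V makes ATP from the proton gradient. Each complex also needs subunits encoded in the nucleus. Mitochondrial DNA is transcribed as long precursors that are cut at the tRNAs, so most of these genes are released from a shared precursor, with MT-ND6 read from the opposite strand. In the reference gene table for cattle (assembly ARS-UCD2.0, used for gene order only) COX1, COX2, ATP8, ATP6 and COX3 follow each other, and CYTB comes last, after ND5 and ND6. ATP8 overlaps ATP6, and ATP6 overlaps COX3, so the assignment of reads in the overlaps is uncertain, for MT-ATP8 most of all. Reads were counted per gene, so a value of MT-ATP8 does not show a transcript separate from that of MT-ATP6.

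The study used primary endometrial cells of non-pregnant cows (Bos taurus) in the early luteal phase, seeded on either side of a porous membrane in a flow device. Epithelial cells lay in the upper chamber and cells enriched for stroma in the lower chamber, and medium flowed at 1 µL per minute for 72 hours. In the glucose experiment the medium held 5 mM or 50 mM of glucose, and in the insulin experiment it held 5 mM glucose and either a vehicle of acetic acid in PBS or insulin, at 1 or at 10 ng/mL. Each of the 10 groups, 4 of glucose and 6 of insulin, had 3 libraries, which gave 12 glucose and 18 insulin libraries. Levels are given as CPM, the count of a gene divided by all counts of its library and scaled to 1000000, and since gene lengths were not used, levels of different genes are not compared. In these bulk libraries, fewer cells of a type and less RNA per cell cannot be told apart.

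The libraries held 8826470 to 16647701 counts, so a count of 0 allowed up to 0.340 CPM in the smallest library (3 counts, for counting error only). The lowest count of any of the 6 genes was 177, for MT-ATP8 in stromal replicate 3 with vehicle. The 22 epithelial markers summed to 9214 to 17140 CPM in epithelial libraries and 137 to 1741 CPM in stromal libraries, except for 6196 CPM in stromal replicate 3 at 50 mM. CDH1 and EPCAM, which encode epithelial adhesion proteins, were at 479 and 307 CPM in that library and at 436 and 149 CPM or more in each epithelial library. Stromal markers, 25 gene entries, gave sums of 18557 to 35577 CPM in the epithelial and 48025 to 111642 CPM in the stromal libraries, with the lowest stromal sum in the same stromal library. Smooth muscle markers reached at most 411 CPM in epithelial libraries and 4327 CPM in stromal libraries. The 6 immune markers found summed to at most 19.5 CPM. Sums of the 9 endothelial markers ran from 26.4 to 110 CPM for epithelial libraries, against 3.87 to 29.1 CPM for stromal ones, and CDH5 and PECAM1, which define endothelium, reached at most 1.08 and 2.83 CPM.

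Epithelial replicate 2 at 5 mM glucose stood apart from the rest. The 13 mitochondrial protein-coding genes took 0.128% of its counts, against 1.18% to 2.36% in the other 29 libraries. The 6 genes took 0.0440%, against 0.921% to 1.85%. Its mitochondrial rRNA was also low, at 1.52% against 8.18% to 18.3%. Values that contain this library are therefore also given without it or without its replicate number, for the 6 genes, the complex I genes and the nuclear genes given for the glucose experiment.

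**Figure D1:**
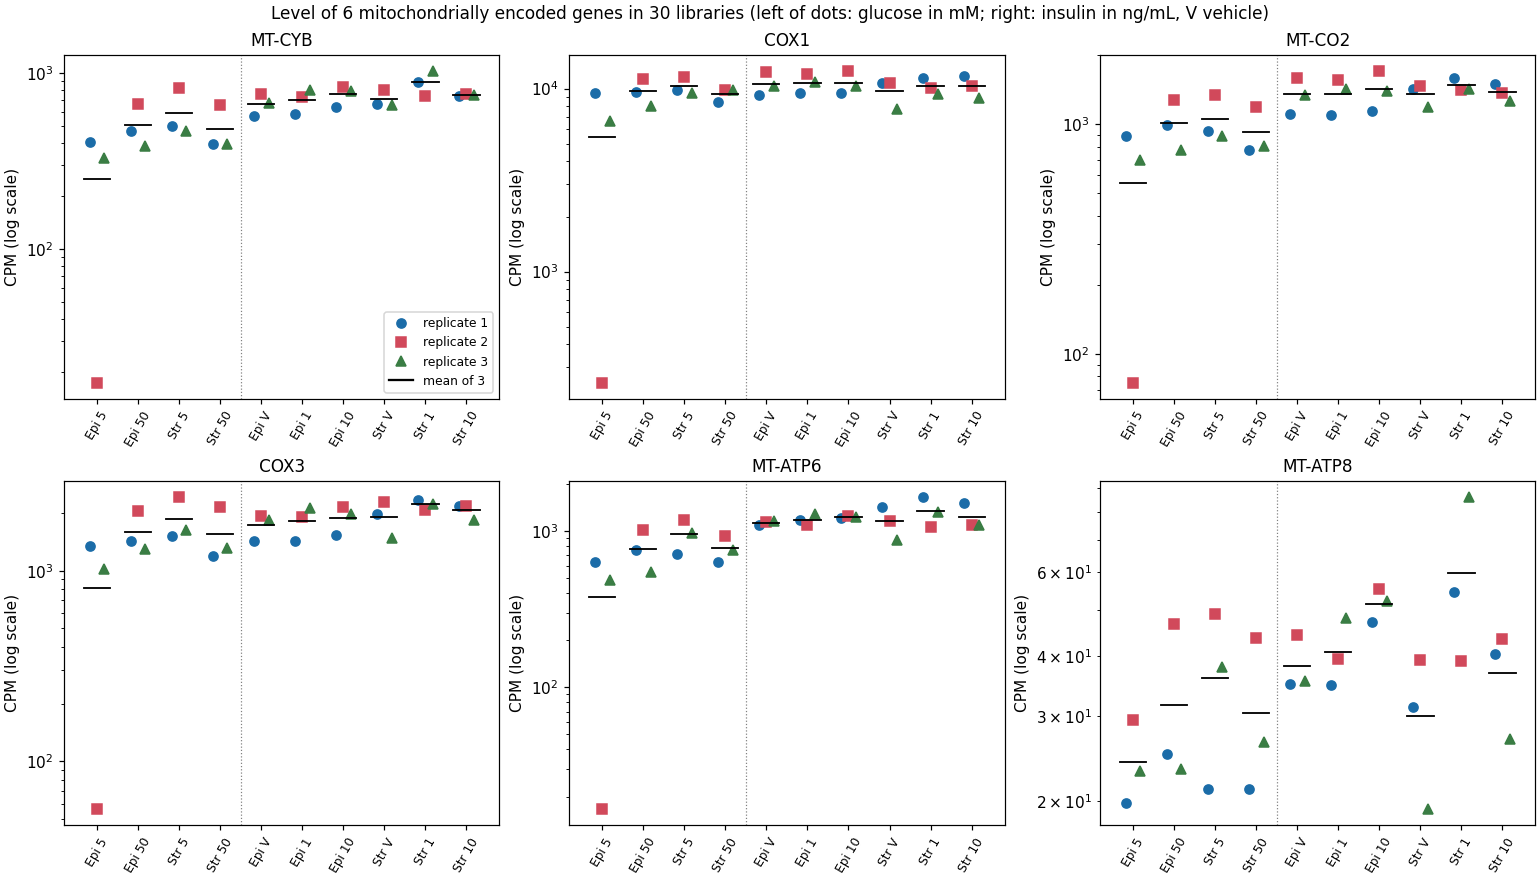
Level of each of the 6 genes in 30 libraries, with CPM on a log axis, 1 point a library (shape and colour give the replicate number) and a bar at the mean of 3. Glucose groups (mM) lie left of the dotted line and insulin groups (ng/mL, V for vehicle) right of it; epithelial replicate 2 at 5 mM lies far under the other points for 5 of the genes, with COX1 at 246 CPM, but not for MT-ATP8, at 29.4 CPM.

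In the other epithelial libraries of the glucose experiment COX1 ranged from 6655 to 11317 CPM, and in epithelial replicate 2 at 5 mM it was at 246 CPM, which was 2.60% of the median of those 5 libraries. MT-ATP6 was at 16.5 CPM, or 2.62% of the median, COX3 at 55.9 CPM, or 4.13%, and MT-CYB at 17.2 CPM, or 4.25%. MT-CO2 was at 74.9 CPM, or 8.40%. All 5 lay under the lowest of the other libraries, and the share of all genes that did was not counted.

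MT-ATP8 did not follow them. Its level of 29.4 CPM, from 397 reads, was 127% of the median of the other 5 libraries, which ranged from 19.8 to 46.7 CPM. This was the only library of the 30 with more reads on MT-ATP8 than on MT-ATP6: it had 178 per 100 MT-ATP6 reads, against 2.18 to 6.48 in the other 29. MT-ATP8 made up 2.30% of the mitochondrial mRNA reads there and 0.128% to 0.444% elsewhere.

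The complex I genes were uneven in the same library. ND1 was at 2.77% and MT-ND3 at 8.68% of the median of the other 5, MT-ND2 at 17.7%, MT-ND4L at 21.3%, MT-ND4 at 40.1% and ND5 at 49.4%. MT-ND6, the gene on the opposite strand, was at 144 CPM and 119% of the median. So 11 of the 13 mitochondrial protein-coding genes lay under the lowest of the other libraries, and MT-ATP8 and MT-ND6 lay within their range. The share of all genes under the lowest of the other libraries was not counted. The 2 mitochondrial rRNAs were at 6.73% and 13.2%. Of 8728 genes with a median of at least 10 CPM in the other 5 libraries, 58 (0.665%) were under 10% of it, and the median gene was at 88.5%. None of the 32 nuclear subunits of complexes III, IV and V was under 10%, and their median was 69.8%. Epithelial markers summed to 17140 CPM in this library, the highest of all, against 9214 to 10256 CPM in the other epithelial glucose libraries, and their part in these values was not tested.

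**Figure D2:**
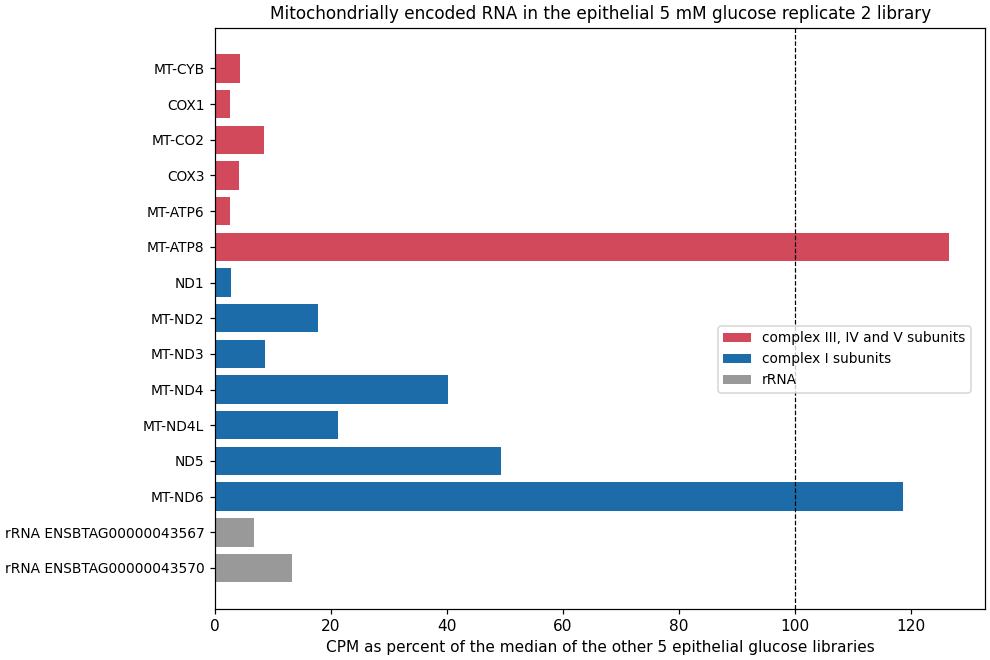
CPM of the mitochondrial protein-coding genes and rRNAs in epithelial replicate 2 at 5 mM glucose, with 1 bar a gene. Values are a percent of the median of the other 5 epithelial glucose libraries (dashed line at 100). MT-ATP8 and MT-ND6 pass 100, at 127% and 119%, and the other 5 complex III to V subunits lie between 2.60% and 8.40%.

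In the insulin experiment COX1 ranged from 7699 to 12541 CPM over the 18 libraries, with a median of 10347 CPM in epithelial and 10318 CPM in stromal cells. MT-ATP6 had medians of 1171 and 1167 CPM, MT-CO2 of 1402 and 1429 CPM, MT-CYB of 733 and 750 CPM. COX3 had 1914 CPM in epithelial and 2185 CPM in stromal cells, and MT-ATP8 had 44.3 and 39.4 CPM. When the groups of an experiment were ordered by the mean level of a gene, no 2 neighbours in any of the orders had ranges that were apart (0 of 48), whether the low epithelial library at 5 mM was kept or left out. Neighbours have the closest means, so this count does not show that groups further apart in an order overlap. The matching share over all genes was not counted.

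The genes differed in how much they varied between the 3 libraries of a group. In the insulin experiment the coefficient of variation of MT-ATP8 was 8.0% to 40.0%, and that of COX1 was 10.2% to 18.0%. MT-ATP6 had 1.55% to 23.4%, with the low values in epithelial and the high values in stromal cells. In the glucose groups other than epithelial cells at 5 mM, MT-ATP8 varied by 38.8% to 41.2% and COX1 by 8.31% to 17.3%.

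The question of the glucose experiment was how epithelial and stromal cells respond to a high concentration of glucose. In epithelial cells at 5 mM, COX1 was at 9481, 246 and 6655 CPM in replicates 1, 2 and 3, and at 50 mM it was at 9634, 11317 and 7982 CPM. The 2 groups overlapped, and the largest step within a pair was in replicate 2. The fitted log2 fold change of COX1 was 1.54 with a standard error of 1.21 (adjusted p = 0.804 by edgeR, whose quasi-likelihood p-values were adjusted by Benjamini-Hochberg). Without replicate 2 it was 0.18 (adjusted p = 0.522 by the same test).

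MT-CYB went from 405, 17.2 and 331 CPM to 471, 671 and 383 CPM. MT-ATP6 went from 631, 16.5 and 484 CPM to 752, 1012 and 544 CPM. For these and for MT-CO2 and COX3, the log2 fold changes were 1.30 to 1.64 with standard errors of 0.871 to 1.27, and 0.19 to 0.25 without replicate 2. In replicates 1 and 3 the log2 ratios of CPM within a pair were 0.01 to 0.34 over the 6 genes. In replicate 2 they were 4.09 to 5.94 for the 5 genes other than MT-ATP8, which had 0.67.

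MT-ATP8 was at 19.8, 29.4 and 23.0 CPM at 5 mM and at 25.1, 46.7 and 23.2 CPM at 50 mM. Replicate 2 was the highest library at both concentrations, and the groups overlapped. Its log2 fold change was 0.35 (standard error 0.243, adjusted p = 0.804 by edgeR), or 0.22 without replicate 2. Each of the 6 genes was higher at 50 mM in 3 of 3 pairs, as were 12.8% of the 13713 genes tested. A call required an adjusted p under 0.05 and a log2 fold change over 0.1 in size, and edgeR called 0 of 6, where it called 0% of all genes. None of the 6 had an unadjusted p under 0.05, where 1.55% of all genes did, and DESeq2 called 0.

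In stromal cells the fitted values had the opposite sign. COX1 was at 9809, 11584 and 9400 CPM at 5 mM and at 8487, 9837 and 9839 CPM at 50 mM. MT-CYB was at 499, 822 and 467 CPM at 5 mM and at 394, 658 and 395 CPM at 50 mM. COX3 was at 1522, 2436 and 1636 CPM at 5 mM and at 1193, 2159 and 1315 CPM at 50 mM. Replicate 2 was the highest library for MT-CYB and COX3 at both concentrations, and the groups of all 6 genes overlapped.

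In stromal cells the fitted log2 fold change of MT-CYB was -0.37 (standard error 0.117, unadjusted p = 0.0324, adjusted p = 0.696 by edgeR). Those of MT-ATP6 and COX3 were -0.35 and -0.35, and COX1 had -0.19 (standard error 0.204). MT-ATP8, at 21.2, 49.2 and 37.9 CPM against 21.2, 43.8 and 26.6 CPM, had -0.29 (standard error 0.170). For the 6 genes edgeR made 0 calls, where it called 0% of 13644 genes. Of them 1 of 6 had an unadjusted p under 0.05, where 4.87% of all genes did, and DESeq2 called 0. COX1 was lower in 2 of 3 pairs and the other 5 genes in 3 of 3, as were 10.4% of all genes. Epithelial markers were higher at 50 mM in stromal cells, with 20 of the 21 tested above 0, and stromal replicate 3 at 50 mM held the most. Without replicate 3 the log2 fold changes of the 6 genes were -0.36 to -0.12, and the part of the markers in them was not tested.

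The difference between the cell types in the effect of glucose was tested by itself. It was 1.92 on the log2 scale for MT-CYB (standard error 1.27, adjusted p = 0.781 by edgeR) and 0.64 for MT-ATP8 (standard error 0.305, adjusted p = 0.701 by edgeR). Without replicate 2 these values were 0.57 and 0.51. Among 14640 genes edgeR called 0%, the 6 genes included (0 of 6). An unadjusted p under 0.05 was found for 7.53% of all genes and for none of the 6, and DESeq2 called 0.

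In the rest of the oxidative phosphorylation system, 6 of the 7 complex I genes were above 0 in epithelial cells, with a median log2 fold change of 1.05, and 1 of 7 was above 0 in stromal cells, with a median of -0.21. The nuclear subunits had medians of -0.04 (9 of complex III), 0.11 (10 of complex IV) and 0.28 (18 of complex V) in epithelial cells. In stromal cells these were -0.01 (9 genes), 0.06 (11 genes) and 0.06 (17 genes). The median of all genes was 0.01 in epithelial and -0.03 in stromal cells. Without replicate 2, 7 of the 7 complex I genes were above 0 in epithelial cells, at 0.14 to 0.27 with a median of 0.22, and the nuclear subunits had medians of -0.08 (9 genes), -0.02 (11 genes) and -0.03 (18 genes). None of these was called by edgeR without replicate 2, where 5 of the 7 complex I genes and 0 nuclear subunits had an unadjusted p under 0.05. The share of all genes with such a p in that fit was not counted. With all libraries, of the nuclear subunits tested, 37 in each cell type, edgeR and DESeq2 called 0, with an unadjusted p under 0.05 for 0.

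**Figure D3:**
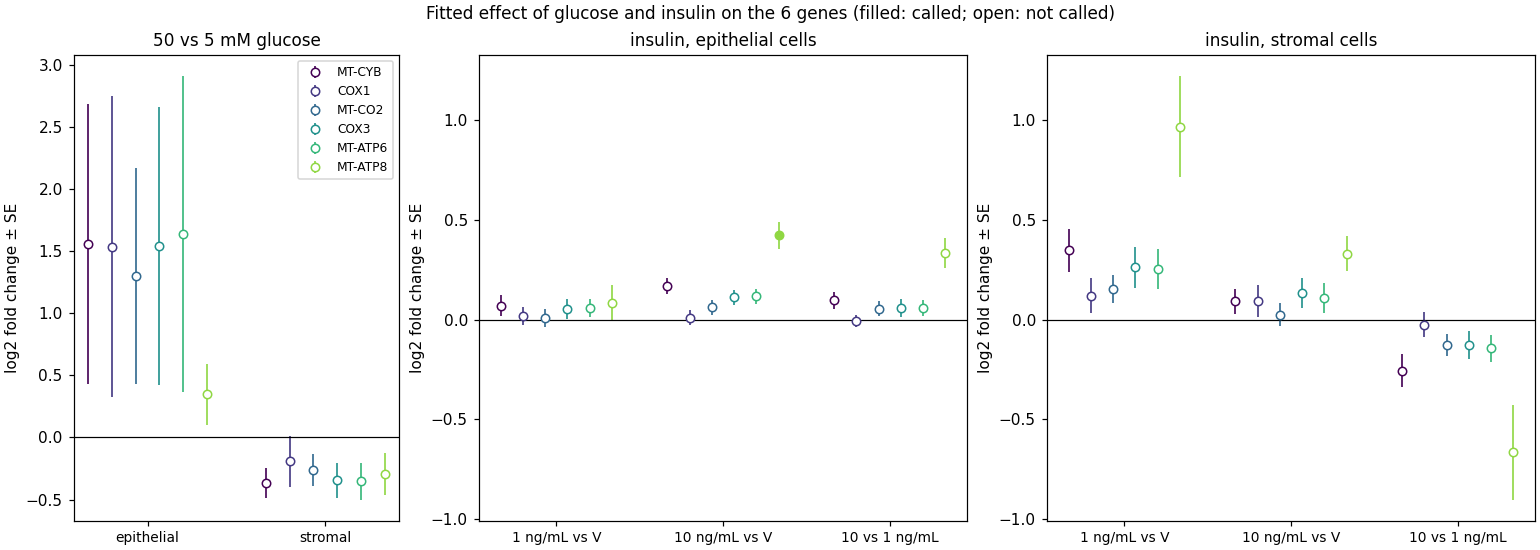
Fitted log2 fold change with its standard error for the 6 genes under glucose (left) and insulin (epithelial cells in the middle, stromal cells on the right), with filled points for called values; the glucose panel has its own scale. MT-ATP8 is the only filled point, at 0.42 in epithelial cells with 10 ng/mL insulin, and the epithelial glucose values of 1.30 to 1.64 carry standard errors of 0.871 to 1.27.

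The insulin experiment asked how both cell types respond to the low and high extremes of circulating insulin. The 3 comparisons within a cell type share libraries, so they are not independent of each other. In epithelial cells with vehicle, MT-ATP8 was at 35.0, 44.3 and 35.5 CPM in replicates 1, 2 and 3. With 1 ng/mL it was at 34.9, 39.6 and 48.0 CPM, and with 10 ng/mL at 47.1, 55.3 and 52.2 CPM. The lowest library with 10 ng/mL lay above the highest with vehicle, while the libraries with 1 ng/mL overlapped both groups.

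From vehicle to 10 ng/mL the mean of MT-ATP8 rose from 38.3 ± 5.24 CPM to 51.5 ± 4.12 CPM (SD, n = 3). The log2 fold change was 0.42 (standard error 0.0667, adjusted p = 0.000834 by edgeR), with an increase in 3 of 3 pairs. It was 1 of 16 genes called among 12853, or 0.124%, and 9 of the 16 were higher (0.0700% of all genes). The call depended on the processing. Without replicate 3 the log2 fold change was 0.35 (adjusted p = 0.0617 by edgeR), while without replicate 1 or 2 it was 0.44 or 0.48 and was called. DESeq2 and the fit without the replicate block gave 0.42 and 0.42, and neither called any gene of the whole table.

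The other 5 genes had smaller log2 fold changes and were not called. MT-ATP6, whose gene overlaps that of MT-ATP8, was at 1087, 1148 and 1156 CPM with vehicle and at 1212, 1249 and 1238 CPM with 10 ng/mL. Its groups also did not overlap, and its log2 fold change was 0.12 (standard error 0.0369, adjusted p = 0.391 by edgeR). MT-CYB went from 573, 764 and 676 CPM to 645, 835 and 794 CPM, with overlapping groups and a higher level in 3 of 3 pairs. Its log2 fold change was 0.17 (standard error 0.0386, adjusted p = 0.0755 by edgeR). It was called without replicate 1 (0.19, adjusted p = 0.0222 by edgeR), without replicate 2 (0.20, adjusted p = 0.0101 by edgeR) and with no filter on low counts (0.17, adjusted p = 0.0107 by edgeR), but not without replicate 3 (0.13, adjusted p = 0.650 by edgeR).

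COX3 had a log2 fold change of 0.11 and MT-CO2 of 0.06, and COX1 had 0.01 (standard error 0.0381), from 9269, 12320 and 10329 CPM to 9437, 12541 and 10347 CPM. Between these libraries the differences among replicates of COX1 were larger than those between doses. All 6 genes were higher in 3 of 3 pairs, as were 14.3% of all genes, and 2 of 6 did not overlap and were higher, as were 1.62% of all genes. Unadjusted, 4 of 6 had a p under 0.05, as did 6.96% of all genes.

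Among the complex I genes, 3 of 7 were called and higher: MT-ND3, MT-ND2 and ND5. MT-ND3, a small subunit of the membrane arm, had the largest log2 fold change of them at 0.36. Over the 6 genes the median log2 fold change was 0.11, over complex I it was 0.19, and over all genes it was 0.00. Nuclear subunits of complexes III, IV and V had medians of -0.02 (9 genes), -0.01 (9 genes) and 0.01 (17 genes). Of these 35 genes edgeR and DESeq2 called 0, with an unadjusted p under 0.05 for 3 by edgeR and 0 by DESeq2. Epithelial markers had a median of 0.00 over 22 genes and stromal markers -0.14 over 23 genes tested.

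From vehicle to 1 ng/mL in epithelial cells, the log2 fold changes were 0.01 to 0.09 and turned to -0.11 to -0.003 without replicate 3. Here edgeR called 0 of 6 genes, where it called 0% of 12966, none had an unadjusted p under 0.05 (2.95% of all genes), and DESeq2 called 0. From 1 to 10 ng/mL, the log2 fold change for MT-ATP8 was 0.34 (standard error 0.0764, unadjusted p = 0.000516, adjusted p = 0.964 by edgeR), with a higher level in 3 of 3 pairs. COX1 had -0.01 and the other 4 genes 0.06 to 0.10. Again edgeR called 0 of 6, where it called 0% of 12873 genes, 2 of 6 had an unadjusted p under 0.05 (4.44% of all genes), and DESeq2 called 0. MT-ATP8 was called without replicate 3, with 0.46 (adjusted p = 0.0154 by edgeR).

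**Figure D4:**
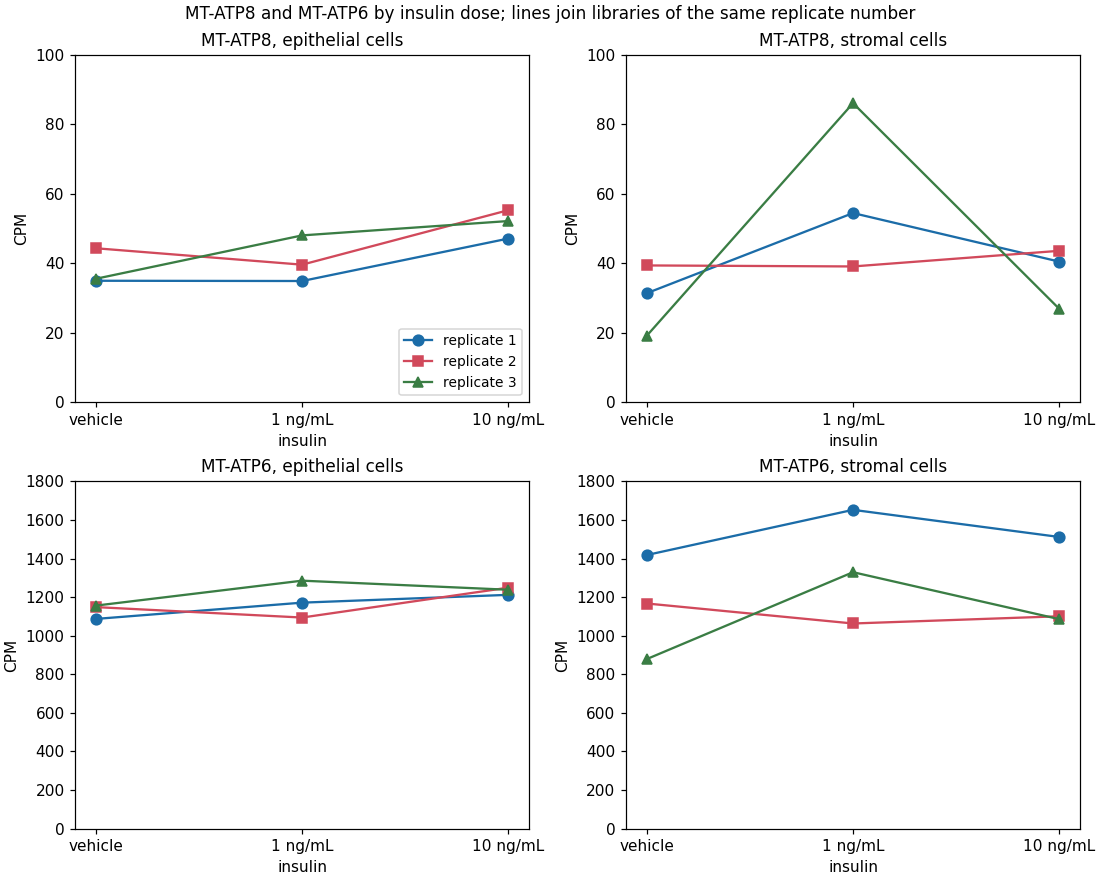
CPM of MT-ATP8 (top) and MT-ATP6 (bottom) by insulin dose in epithelial (left) and stromal cells (right), with lines joining libraries of the same replicate number. In epithelial cells MT-ATP8 ends at 47.1 to 55.3 CPM with 10 ng/mL, and in stromal replicate 3 it goes from 19.2 CPM with vehicle to 86.1 CPM with 1 ng/mL and 26.9 CPM with 10 ng/mL.

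In stromal cells MT-ATP8 was highest with 1 ng/mL, but its libraries spread widely. With vehicle it was at 31.4, 39.4 and 19.2 CPM in replicates 1, 2 and 3, with 1 ng/mL at 54.5, 39.1 and 86.1 CPM, and with 10 ng/mL at 40.5, 43.6 and 26.9 CPM. Replicate 3 was the lowest library with vehicle and with 10 ng/mL and the highest with 1 ng/mL, while replicate 2 stayed between 39.1 and 43.6 CPM. The groups overlapped in all 3 comparisons.

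From vehicle to 1 ng/mL the log2 fold change of MT-ATP8 was 0.97 (standard error 0.254, unadjusted p = 0.00227, adjusted p = 0.626 by edgeR), and within the pairs it was 0.79, -0.01 and 2.17. Without replicate 3 it was 0.43 (adjusted p = 0.0549 by edgeR), and without replicate 2 it was 1.47 and called (adjusted p = 0.000308 by edgeR). The other 5 genes had log2 fold changes of 0.12 for COX1 to 0.35 for MT-CYB, each higher in 2 of 3 pairs and lower in replicate 2. MT-CYB was at 666, 807 and 662 CPM with vehicle and at 897, 747 and 1036 CPM with 1 ng/mL.

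In stromal cells with 1 ng/mL edgeR called 0 of the 6 genes, where it called 0.0157% of 12711 genes, and DESeq2 called 0. Unadjusted, 5 of 6 had a p under 0.05, as did 5.16% of all genes. Without replicate 2, 4 of the 6 were called: MT-CYB (0.58), COX3 (0.45), MT-ATP6 (0.44) and MT-ATP8. The share of all genes called in that fit is not given here. All 7 complex I genes were above 0, with a median of 0.44, and in replicate 3 their log2 ratios of CPM were 0.38 to 1.77. The nuclear subunits had medians of 0.00 (9 genes of complex III), 0.05 (10 of complex IV) and 0.05 (17 of complex V). Among these 36 genes 2 had an unadjusted p under 0.05 by edgeR and 0 by DESeq2, and both tools called 0. The epithelial marker sum of stromal replicate 3 was 137 CPM with vehicle and 153 CPM with 1 ng/mL.

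From vehicle to 10 ng/mL in stromal cells, the log2 fold change for MT-ATP8 was 0.33 (standard error 0.0879, adjusted p = 0.999 by edgeR), and it was higher in 3 of 3 pairs, as were 11.1% of all genes. The other 5 genes had 0.03 to 0.13 and were higher in 2 of 3 pairs. From 1 to 10 ng/mL all 6 values were below 0, from -0.02 for COX1 to -0.67 for MT-ATP8 (standard error 0.237, adjusted p = 1.00 by edgeR). Both tools called 0 of 6 in these 2 comparisons, where edgeR called 0% of 12779 and 0.0313% of 12772 genes. Unadjusted, 1 and 3 of 6 had a p under 0.05, as did 2.79% and 3.91% of all genes. Without replicate 3, MT-ATP8 had 0.25 from vehicle and -0.18 from 1 ng/mL.

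The tests of the difference between cell types did not separate the responses of MT-ATP8. For 1 ng/mL against vehicle the difference was -0.87 (standard error 0.344, adjusted p = 0.564 by edgeR), epithelial minus stromal. For 10 against 1 ng/mL it was 1.00 (standard error 0.306, adjusted p = 0.295 by edgeR), or 0.63 without replicate 3, and it was called without replicate 1 (1.04, adjusted p = 0.0323 by edgeR). For 10 ng/mL against vehicle it was 0.10 (standard error 0.115). With all libraries edgeR called 0 of the 6 genes in these 3 tests, which called 0.658%, 0.754% and 0% of all genes, in this order. An unadjusted p under 0.05 was found for 1, 3 and 0 of the 6, where it was found for 6.78%, 6.83% and 4.05% of all genes, and DESeq2 called 0 in each.

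Epithelial and stromal cells were then compared within each condition. With vehicle, COX1 was at 9269, 12320 and 10329 CPM in epithelial and at 10698, 10748 and 7699 CPM in stromal cells. MT-CO2 was at 1112, 1585 and 1347 CPM in epithelial and at 1430, 1465 and 1185 CPM in stromal cells. The groups overlapped for all 6 genes.

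With vehicle the log2 differences, epithelial over stromal, were -0.21 for COX3 (standard error 0.170) to 0.32 for MT-ATP8 (standard error 0.155). None of the 6 was called by edgeR (0 of 6) or had an unadjusted p under 0.05, where 55.2% of 13395 genes were called and 61.3% had such a p, and DESeq2 called 0. With 10 ng/mL they were -0.25 to 0.40, and edgeR called 0 of 6, where it called 54.4% of 13274 genes. MT-ATP8 was the exception among the 6 there, since its epithelial libraries (47.1 to 55.3 CPM) lay above its stromal ones (26.9 to 43.6 CPM), as did the epithelial libraries of 36.8% of all genes. Its adjusted p was 0.0787 by edgeR. Unadjusted, 1 of 6 had a p under 0.05, where 60.9% of all genes did, and DESeq2 called 0.

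With 1 ng/mL all 6 values were below 0. MT-ATP8 was called, with -0.60 (standard error 0.195, adjusted p = 0.0420 by edgeR), where 58.9% of 13334 genes were called. Its groups overlapped, with epithelial libraries at 34.9 to 48.0 CPM and stromal libraries at 39.1 to 86.1 CPM, and it was lower in 2 of 3 pairs. The call was lost without replicate 3 (-0.39, adjusted p = 0.166 by edgeR), without replicate 1, without the replicate block and with DESeq2. MT-CYB had -0.44 (adjusted p = 0.0530 by edgeR) and COX3 -0.42, and both were lower in 3 of 3 pairs, as were 34.5% of all genes. Unadjusted, 2 of 6 had a p under 0.05, where 64% of all genes did.

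With 50 mM glucose the log2 differences were -0.19 to -0.02, and edgeR called 0 of 6, where 17.3% of 13892 genes were called and 36.3% had an unadjusted p under 0.05. None of the 6 had one, and DESeq2 called 0. The stromal library with 6196 CPM of epithelial markers is in this comparison, and without replicate 3 the values were -0.09 to 0.05.

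With 5 mM glucose the log2 differences were -0.74 for MT-ATP8 and -2.25 to -1.59 for the other 5 genes, and all 6 were lower in epithelial cells in 3 of 3 pairs, as were 21.3% of all genes. Libraries of MT-CYB, COX3 and MT-ATP6 did not overlap, with the epithelial ones lower, as for 15.9% of all genes. With all 6 libraries edgeR called 0 of 6, where it called 21.1% of 13927 genes, and none had an unadjusted p under 0.05, where 32.4% of all genes did, while DESeq2 called COX3 and MT-ATP6. Without replicate 2 the values were -0.84 to -0.46, and edgeR called 0 of 6. Without replicate 1 or 3, which leaves the low library as 1 of 2, 5 and 4 of the 6 were called. The shares of all genes called by DESeq2 and in the fits without a replicate are not given here.

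**Figure D5:**
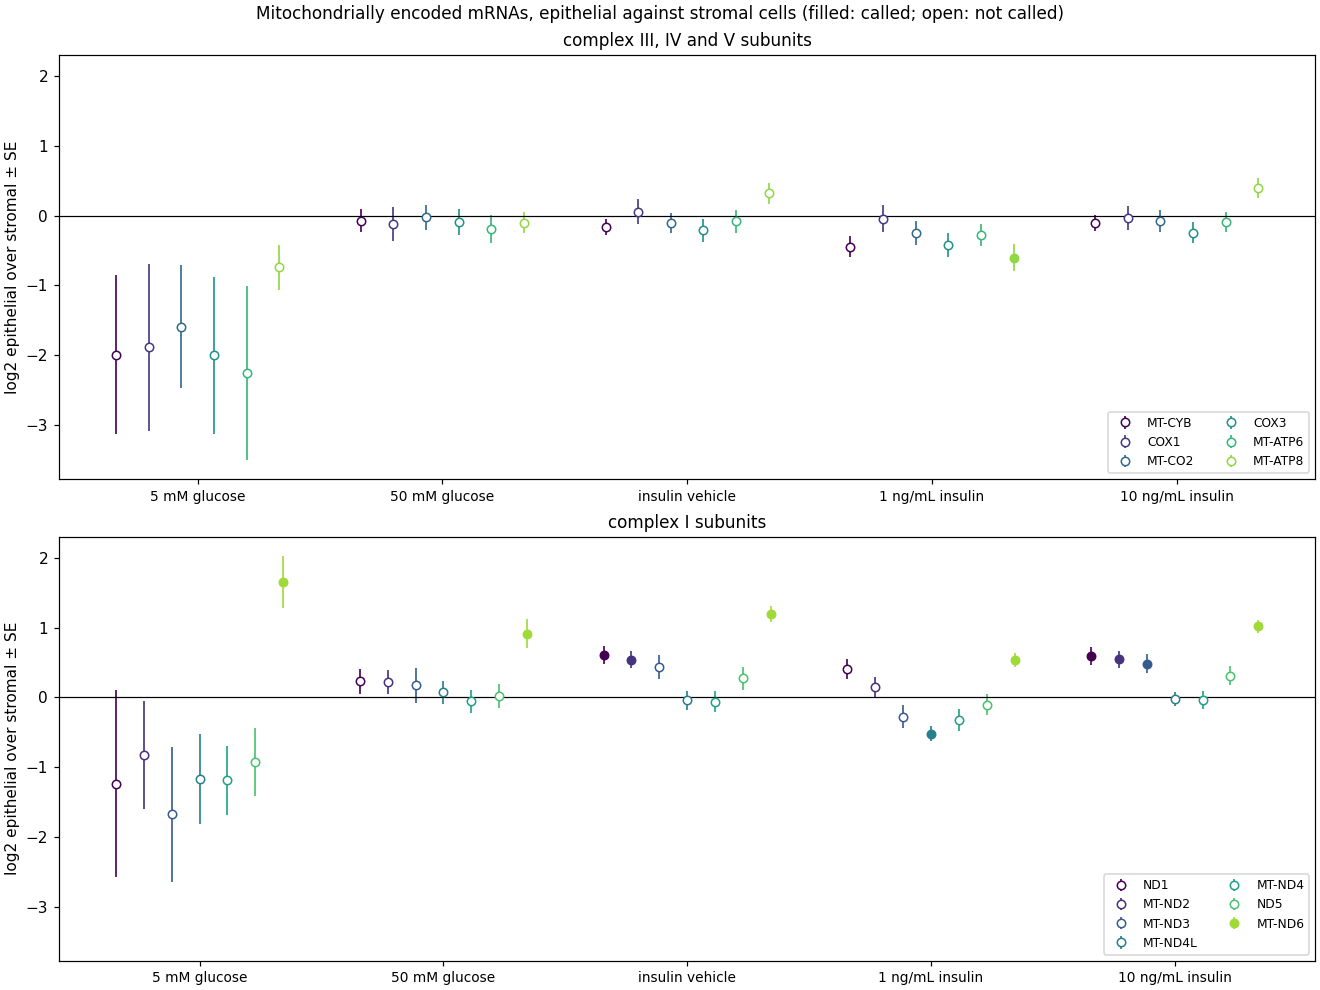
Log2 difference between epithelial and stromal cells with its standard error in each condition, for the 6 genes (top) and the 7 complex I genes (bottom), with filled points for called values. Outside 5 mM glucose the 6 genes lie between -0.60 and 0.40, with MT-ATP8 with 1 ng/mL insulin (-0.60) as the only called value, whereas MT-ND6 is called in all 5 conditions, at 0.54 to 1.65.

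Of the 7 complex I genes, 1 was called between the cell types at 5 mM glucose and 1 at 50 mM. With vehicle 3 of 7 were called, with 1 ng/mL 2 of 7 and with 10 ng/mL 4 of 7. Over all genes the shares called were 21.1%, 17.3%, 55.2%, 58.9% and 54.4%, in this order. MT-ND6 was called and higher in epithelial cells in each of the 5 conditions, from 0.54 with 1 ng/mL to 1.65 with 5 mM glucose. Its gene overlaps that of ND5, so its reads also depend on how they were assigned. At 5 mM the value of MT-ND6 was 1.77 and called without replicate 2 and 1.30 and not called without replicate 3. At 50 mM it was not called without replicate 2 (0.71) or without replicate 1, where edgeR called no gene. With vehicle ND1 (0.61) and MT-ND2 (0.54) were also called and higher, and with 10 ng/mL ND1 (0.59), MT-ND2 (0.54) and MT-ND3 (0.48) were. MT-ND4L was called and lower with 1 ng/mL (-0.52), and its gene overlaps that of MT-ND4. The 6 genes of complexes III to V took 78.4% to 80.0% of the mitochondrial mRNA reads in epithelial and 79.9% to 84.9% in stromal insulin libraries.

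Nuclear subunits of the same complexes also differed between the cell types. With vehicle, 2 of 9 subunits of complex III, 2 of 10 of complex IV and 5 of 17 of complex V were called, against 55.2% of all genes. ATP5MC2, which encodes the c subunit of the rotor of ATP synthase, was higher in epithelial cells, at 0.67 with vehicle, 0.61 with 1 ng/mL and 0.80 with 10 ng/mL. COX4I1, a regulatory subunit of complex IV, was higher at 0.46, 0.38 and 0.39. UQCRB, a small subunit of complex III, was lower at -0.47, -0.39 and -0.48. Other subunits of complex III were called higher: CYC1 with vehicle (0.41), UQCRH with 1 and 10 ng/mL (0.45 and 0.34) and UQCRFS1 with 1 ng/mL (0.39). Of complex V, ATP5PF was called lower (-0.34) and ATP5F1D higher (0.48) with 1 ng/mL. In both glucose conditions the only nuclear subunit called by edgeR was COX7A1, the muscle-type isoform of a complex IV subunit, which was lower in epithelial cells (-2.68 at 5 mM and -2.20 at 50 mM). Of 38 nuclear subunits DESeq2 called 2 at 5 mM and 1 at 50 mM. Without replicate 2 COX7A1 had -2.29 at 5 mM and was not called (adjusted p = 0.0833 by edgeR). At 50 mM its call held without replicate 2 or without replicate 3, but was lost without replicate 1, where edgeR called no gene.

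Some factors that make and process mitochondrial RNA, or assemble the complexes, also differed. As a set, 14 of 52 were called with vehicle, 17 of 52 with 1 ng/mL and 18 of 52 with 10 ng/mL. Over all genes the shares were 55.2%, 58.9% and 54.4%, in this order. With 5 and 50 mM glucose 3 of 51 and 3 of 52 were called, against 21.1% and 17.3% of all genes. Of 11 factors of mitochondrial RNA synthesis, 7 were lower and 0 higher in epithelial cells with vehicle, where 27.3% of all genes were called lower and 27.8% higher. With 1 ng/mL 6 were lower and 1 higher, against 29.3% and 29.6% of all genes, and with 10 ng/mL 7 were lower and 1 higher, against 27.3% and 27.1%. MTERF3, a repressor of mitochondrial transcription, was lower in all 3 (-0.99, -1.07 and -0.84), and PPARGC1A, a coactivator of mitochondrial biogenesis, was lower with vehicle (-5.15). With all libraries kept, PPARGC1A was also called lower with 5 and 50 mM glucose, and its fits without a replicate are not given here. With 1 and 10 ng/mL, GABPA of the same list was called lower (-0.58 and -0.56) and NRF1 higher (0.57 and 0.80). LRPPRC, which stabilises mitochondrial mRNAs, was higher (0.80, 0.73 and 0.77). In its list of RNA processing factors, ANGEL2 (vehicle) and PTCD3 (1 and 10 ng/mL) were also called higher. ELAC2 (vehicle and 10 ng/mL), KIAA0391 (vehicle and 1 ng/mL) and FASTK (10 ng/mL) of the same list were called lower. Of the assembly factors, SCO1, a copper chaperone of complex IV, was called in all 5 conditions, higher in epithelial cells at 0.78 to 1.40. At 5 mM glucose it was 1.53 and called without replicate 2 and 1.33 and not called without replicate 3. At 50 mM it was not called without replicate 2 (0.93) or without replicate 1, where edgeR called no gene.

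The pattern of the 6 genes over the libraries depended on the library that stood apart. Likeness was the Pearson r of log2(CPM + 1), after subtracting the mean of each cell type in each experiment, among 8935 genes with a mean of 10 CPM or more. Over all 30 libraries, 5 other mitochondrial protein-coding genes were among the 20 genes most like MT-CYB, COX1, MT-CO2, COX3 and MT-ATP6. The most similar nuclear genes had r of 0.96 to 0.97 (DCAF13, PSMC6, SLC30A6, SLC30A6 and R3HDM1, in this order). MT-ATP8 had 4 mitochondrial protein-coding genes among its 20, and its most similar nuclear gene was RPL6 (r = 0.62). Its r with MT-ATP6 was 0.14 and with COX1 0.05.

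Without epithelial replicate 2 at 5 mM, none of the nuclear genes named for MT-CYB, COX1, MT-CO2, COX3 and MT-ATP6 was among the 3 most similar. ITSN1 was then the most similar to MT-CYB (r = 0.79), MT-CO2 (r = 0.86) and COX3 (r = 0.86), and LZTFL1 to COX1 (r = 0.83). MT-ATP8 then had 10 mitochondrial protein-coding genes among its 20 most similar genes, with r = 0.73 for MT-ATP6 and r = 0.51 for COX1. Its highest values among all mitochondrial protein-coding genes were 0.87 with MT-ND3 and 0.86 with MT-ND4L, ND5 and MT-ND2, and its r with MT-ND6 was 0.04. Apart from mitochondrial genes, RF00092 (r = 0.69) and ROMO1 (r = 0.67) were then the most similar to MT-ATP8. The libraries share the replicate numbers, the depth and the 2 experiments, and these values are descriptions over 30 or 29 libraries.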

How the data were processed

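Stranded RNA libraries of cultured bovine endometrial cells (epithelial or stromal) were sequenced. The authors inspected reads with FastQC, trimmed them with cutadapt, aligned them with Rsubread to the Ensembl cow genome, kept unique alignments and deposited raw read counts per gene made with featureCounts. The strand setting and the build's name are not given in the sources used here. Tables of the authors' DESeq2 comparisons (fold changes and p-values) were used for gene names only. Counts of 8826470 to 16647701 reads a library were fitted in R 4.3.3 with edgeR 4.0.16 (TMM, filterByExpr, quasi-likelihood test, Benjamini-Hochberg adjustment over all genes tested), using the libraries of the 2 groups compared, or of 4 groups for a difference between cell types. The replicate number was a block, since the study used a paired design. Same-numbered libraries deviated together within a cell type (r = 0.208 to 0.854, 24 pairs) and less between cell types (0.0331 to 0.521, 15 pairs, 3 of 39 at 0.1 or under). Calls needed an adjusted p under 0.05 and a log2 fold change over 0.1 in size. With 3 libraries a group, p-values of these fits measure the spread that remains after the replicate block, part of which may be technical. No libraries were identical. DESeq2 1.42.0, other scalings, no filter on low counts, no block, 1 fit over 9 libraries and leaving out each replicate were alternatives; leaving out 1 library for likeness and group order, and 1 replicate for the gene lists under glucose, was added after seeing the data.

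The text names the 6 genes throughout, called complex I genes, up to 2 called genes of smallest adjusted p in each direction from each nuclear list, and the most similar genes, 1 of which is not reported here. Members and lists were chosen with earlier results of these data known. Of the listed genes, COX4I2, COX6A2, COX6C, COX7C and COX8B of complex IV had no match by name. The fits were tested on simulated data.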

Additional observations from a re-analysis of the deposited data

Results flagged for a closer look

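Under glucose, 5 of the 6 genes were higher at 50 mM in every epithelial pair and lower in every stromal pair. They were flagged by this pattern, and the share of all genes with it was not counted. Of all genes, 12.8% were higher in every epithelial pair and 10.4% lower in every stromal pair. For MT-ATP8 the levels were nearly equal in epithelial replicate 3 and in stromal replicate 1. The difference between the effects in the 2 cell types (epithelial minus stromal, log2 scale) was 1.92 for MT-CYB, 1.56 for MT-CO2, 1.89 for COX3, 1.99 for MT-ATP6 and 0.64 for MT-ATP8. The difference itself was tested with edgeR and did not pass, with adjusted p-values of 0.781, 0.778, 0.781, 0.781 and 0.701 in the same order. Without replicate 2, which holds the epithelial library that stood apart, these differences were 0.57, 0.43, 0.60, 0.54 and 0.51. The stromal library with the epithelial marker sum of 6196 CPM is replicate 3 of the same comparison.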

How the results depend on the processing

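Size factors of DESeq2, scaling on nuclear genes alone, no filter on low counts, no replicate block, DESeq2, and 1 fit over the 9 insulin libraries of a cell type gave 471 values of single genes. Of these, 454 kept their sign and their side of the threshold, 12 gained a call, 5 lost one and 0 changed sign. From vehicle to 10 ng/mL in epithelial cells, where 1 of the 6 genes was called, no filter gave 2, no replicate block 0, DESeq2 0 and the fit over 9 libraries 0. Between cell types with 1 ng/mL, where 1 was called, no replicate block gave 0 and DESeq2 0, and with 5 mM glucose, where 0 were, DESeq2 gave 2. No filter on low counts raised the count from 0 to 1 for 10 against 1 ng/mL in epithelial cells, to 4 for 1 ng/mL against vehicle and to 2 for 10 against 1 ng/mL in stromal cells, and to 2 and 2 for the differences between cell types in these effects. Over all genes, the calls for 10 ng/mL against vehicle in epithelial cells went from 16 to 49 with no filter and to 0 without the block, with DESeq2 and in the fit over 9 libraries, and in stromal cells they went from 2 to 156 (1 ng/mL against vehicle) and from 4 to 165 (10 against 1 ng/mL) with no filter. For the differences between cell types in 1 ng/mL against vehicle and 10 against 1 ng/mL, 92 and 105 calls became 294 and 321 with no filter, 27 and 53 with DESeq2, and 0 and 0 without the block. For glucose, DESeq2 called 195 genes in stromal cells and 234 for the difference between cell types, in place of 0. Between cell types at 50 mM, 2397 calls became 1088 without the block and 0 without replicate 1. The replicate block changed no other count of the 6 genes, and without it the epithelial glucose values were 0.40 to 1.1 in place of 0.35 to 1.64.

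Leaving out 1 replicate at a time gave counts of 0 to 2 for 10 ng/mL against vehicle and 0 to 1 for 10 against 1 ng/mL in epithelial cells, 0 to 4 for 1 ng/mL against vehicle in stromal cells, 0 to 5 with 5 mM glucose and 0 to 2 with 1 ng/mL between cell types, and 0 to 1 for the difference between cell types in 10 against 1 ng/mL. The shares of all genes called in these fits are not given here. Of 261 values of single genes, 223 kept sign and side, 18 gained a call, 3 lost one and 17 changed sign, none of those past the threshold. In epithelial cells with 1 ng/mL against vehicle the ranges were -0.034 to 0.14 (MT-CYB), -0.025 to 0.041 (COX1), -0.046 to 0.042 (MT-CO2), -0.034 to 0.11 (COX3), -0.0033 to 0.12 (MT-ATP6) and -0.11 to 0.21 (MT-ATP8). COX1 had -0.032 to 0.031 for 10 against 1 ng/mL in epithelial cells and -0.065 to 0.0022 in stromal cells, where MT-CO2 had -0.018 to 0.081 for 10 ng/mL against vehicle. Between cell types, COX1 had -0.23 to 0.0083 (50 mM), -0.012 to 0.16 (vehicle), -0.15 to 0.11 (1 ng/mL) and -0.13 to 0.085 (10 ng/mL). MT-CO2 had -0.073 to 0.046 (50 mM) and -0.21 to 0.069 (10 ng/mL), and MT-ATP6 had -0.21 to 0.031 (vehicle) and -0.16 to 0.016 (10 ng/mL). The cause of these changes was not tested.

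The epithelial glucose fit had 3 libraries a group, with the low library among them, and standard errors up to 1.27. In this fit changes of the size seen without replicate 2 were undetectable. Reads in the overlaps of ATP8, ATP6 and COX3, and of ND5 and ND6, depend on how they were assigned. The strand setting of the counting is not given in the sources used here.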
